A study of Rattus norvegicus with 6 samples.

Results

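The digestive enzyme genes of the pancreatic acinar cell were followed in mRNA libraries of rat islets, the endocrine cell clusters that lie within the acinar tissue. The set held 9 genes, chosen by symbol: Pnlip, Pnliprp1, Clps, Cel, Cpa1, Cpb1, Amy2a3, Prss1 and Ctrb1. All 9 had a row among the 17055 gene rows, and all 9 passed the filter on low counts that left 10124 genes for testing. Pnlip passed it through its adult libraries alone. The libraries came from intact islets of Sprague-Dawley rats described as controls. The P10 group held 3 libraries of 10-day-old pups, whose sex the labels do not give, and the adult group 3 libraries of 3-month-old males. Age cannot be told apart from sex if some pups were female. The libraries are labelled as biological replicates, and the labels do not say how many animals each holds.

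Acinar cells make the enzymes that digest food in the gut and store them, mostly as inactive precursors, in zymogen granules. Islets are separated from this tissue before use, and islet preparations usually keep some acinar cells or RNA. The enzyme mix of the rat pancreas is known to change around weaning, when a milk diet rich in fat gives way to solid food rich in starch. Classical pancreatic lipase is known to be scarce before weaning, when other lipases prevail. Pups of 10 days are still suckling.

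Gene counts per library ran from 3307415 to 6477825. Levels are given as CPM, the count scaled to a common library size with trimmed mean (TMM) factors. A count of 3 equalled from 0.407 to 1.10 CPM, depending on the library. Transcript lengths were not used here, so levels are compared between libraries and not between genes. Differences were tested with edgeR's quasi-likelihood test and called at a false discovery rate (FDR) under 0.05. By this rule 26.3% of all tested genes were called, 12.5% as higher and 13.8% as lower in adults.

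The amount of enzyme mRNA differed widely among the adult libraries. The 9 genes together took 0.371%, 0.564% and 0.341% of gene counts in P10 replicates 1, 3 and 4. Their share was 0.0919%, 0.0929% and 0.358% in adult replicates 1, 2 and 3. Adult replicate 3 thus held 3.90 times the share of adult replicate 1 and 3.86 times that of adult replicate 2, and lay within the P10 range. The group means were 0.426% ± 0.121 (SD, n = 3) at P10 and 0.181% ± 0.153 (SD, n = 3) in adults. These percentages depend on what else fills the totals. Islet hormone genes summed to between 257150 and 323740 CPM at P10 and between 556910 and 693270 CPM in adults. With TMM factors the 9 genes summed to 3263, 4484 and 2945 CPM at P10 and 1051, 1185 and 4130 CPM in adults. The log2 ratio of the group means, adult over P10, was -0.75 with TMM factors and -1.24 with library totals alone. In these bulk samples fewer acinar cells and less RNA per cell cannot be told apart, and the part of the hormone genes was not tested. Values without adult replicate 3 are given beside those that it moved most.

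**Figure D1:**
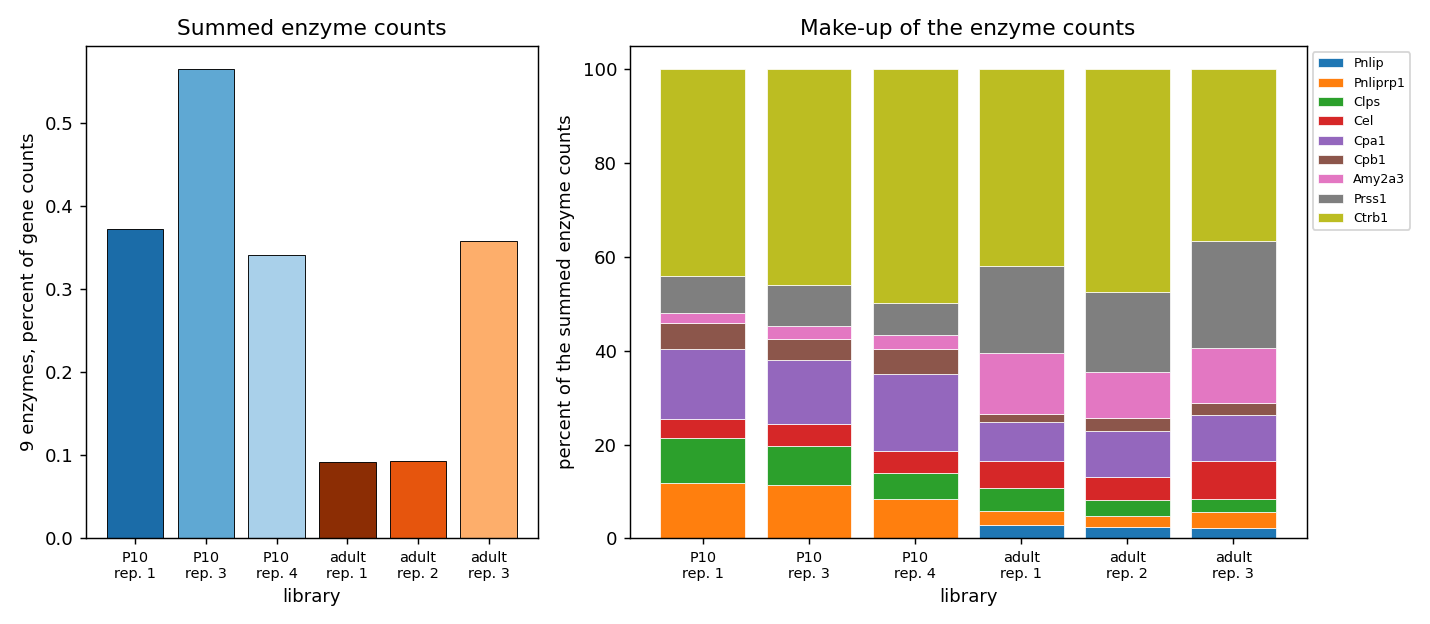
Left, the summed counts of the 9 enzymes as a percentage of gene counts in each library. Right, each enzyme's percentage of those summed counts. Adult replicate 3 stands with the P10 libraries in amount (0.358%) but with the other adult libraries in make-up, with Amy2a3 and Prss1 taking larger and Pnliprp1 and Cpb1 smaller percentages in all 3 adult than in all 3 P10 libraries.

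Of the 9 enzyme genes, 2 were higher and 5 lower in adult islets, and 2 did not pass. Without adult replicate 3, 1 was higher, 6 were lower and 2 did not pass, where 21.4% of all tested genes were called, 10.0% higher and 11.4% lower. The median log2 fold change, adult over P10, was -0.98 over the 9 genes and -0.03 over all tested genes, and without adult replicate 3 it was -1.72 and -0.03. Pnlip was higher and Pnliprp1 and Clps were lower under every alternative run. The other calls depended on single libraries or on the test, as given with each gene. The levels of the groups did not overlap for 5 of the 9 genes, 1 higher and 4 lower. The same was true of 42.3% of the tested genes, 20.0% higher and 22.3% lower.

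**Figure D2:**
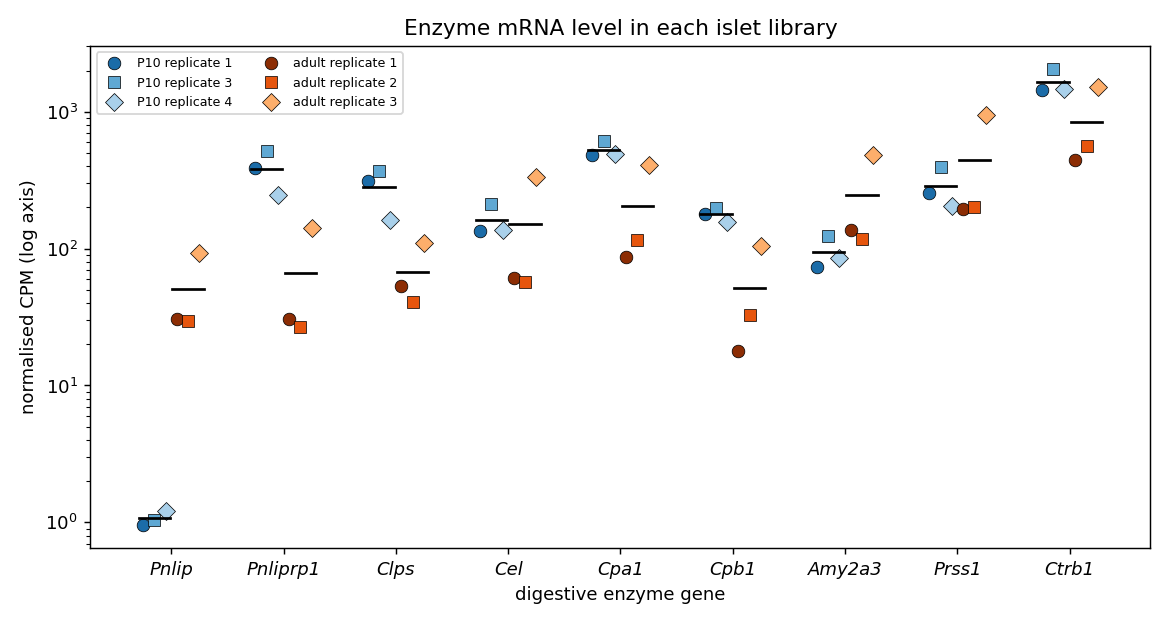
Normalised CPM of each enzyme gene (log axis) in each library, with P10 in blue, adult in brown and orange, and the group mean as a line. Pnlip lies between 0.949 and 1.21 CPM in the P10 libraries and between 29.7 and 92.7 CPM in the adult libraries, and adult replicate 3 is the highest adult library for every gene.

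Of the lipid-digesting genes Pnlip rose, Pnliprp1 and Clps fell, and Cel did not pass. Pnlip encodes pancreatic lipase, which splits dietary triglycerides. It had 7, 7 and 5 counts in the P10 libraries, or 0.949, 1.04 and 1.21 CPM in replicates 1, 3 and 4. In adult replicates 1, 2 and 3 it had 88, 81 and 505 counts, or 30.4, 29.7 and 92.7 CPM. The P10 counts were under the filter's minimum of 10, so Pnlip was tested only because of its adult counts. The lowest adult library was far above the highest P10 library. Pnlip rose by a log2 fold change of 5.60 ± 0.49 (SE; edgeR FDR = 7.80e-07), a fold of 48.4, and by 4.81 ± 0.41 (FDR = 1.56e-06), a fold of 28.1, without adult replicate 3.

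Pnliprp1 encodes pancreatic lipase-related protein 1, a close relative of pancreatic lipase with little or no activity of its own on triglycerides. It lay at 385, 513 and 245 CPM at P10 and at 30.4, 26.8 and 141 CPM in adults. Every adult library was below every P10 library, adult replicate 3 included. Pnliprp1 fell by a log2 fold change of -2.47 ± 0.45 (SE; edgeR FDR = 0.000729), a fold of 5.54, and 13.3-fold (FDR = 4.34e-07) without adult replicate 3.

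Clps encodes colipase, the cofactor that holds pancreatic lipase at the fat surface in the presence of bile salts. It lay at 312, 368 and 163 CPM at P10 and at 52.9, 41.1 and 110 CPM in adults, again without overlap. Clps fell 4.05-fold (log2 fold change -2.02 ± 0.31 SE; edgeR FDR = 0.000192), and 5.96-fold without adult replicate 3. The cofactor was thus lower in the same adult libraries in which Pnlip was higher.

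Cel encodes carboxyl ester lipase, a bile salt-dependent enzyme that also splits cholesterol and vitamin esters. It lay at 135, 210 and 137 CPM at P10 and at 60.5, 56.8 and 335 CPM in adults. Adult replicates 1 and 2 were below, and adult replicate 3 above, all P10 libraries. Cel did not pass (log2 fold change -0.06 ± 0.46 SE; edgeR FDR = 0.936). Without adult replicate 3 it fell 2.73-fold (FDR = 0.000191), and the sign turned without P10 replicate 3 or without adult replicate 1 or 2.

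Pnlip and Pnliprp1 are neighbours on chromosome 1 in RefSeq's annotation of the GRCr8 assembly, with Pnliprp2 next in line. Since these adjacent genes went in opposite directions, their upstream sequences are shown beside those of Amy2a3, the other gene that rose, and Cpb1, another that fell. RefSeq start sites were matched for 8 of the 9 genes, and the 250 bases before the start are given 5′ to 3′ on the gene's strand, on GRCr8, which is not the build of the counts. Capitals mark matches on either strand to 3 motifs, which do not overlap each other in these windows. The first is CACCTG, the E-box bound by the acinar factor PTF1. The second is TTTCCC, the other part of the PTF1 site. The third is TATAAA, the core of the TATA box.
Pnlip, chr1:267784360-267784609, plus strand: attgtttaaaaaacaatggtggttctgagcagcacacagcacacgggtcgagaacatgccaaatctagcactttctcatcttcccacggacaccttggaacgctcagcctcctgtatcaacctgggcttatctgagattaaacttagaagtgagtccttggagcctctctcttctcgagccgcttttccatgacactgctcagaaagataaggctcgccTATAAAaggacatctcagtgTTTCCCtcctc
Pnliprp1, chr1:267853777-267854026, plus strand: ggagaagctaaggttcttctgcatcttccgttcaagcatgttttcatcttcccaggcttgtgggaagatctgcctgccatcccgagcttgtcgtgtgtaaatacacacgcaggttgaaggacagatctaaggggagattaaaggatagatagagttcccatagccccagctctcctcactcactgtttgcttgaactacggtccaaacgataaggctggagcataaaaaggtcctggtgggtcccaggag
Amy2a3, chr2:204014413-204014662, minus strand: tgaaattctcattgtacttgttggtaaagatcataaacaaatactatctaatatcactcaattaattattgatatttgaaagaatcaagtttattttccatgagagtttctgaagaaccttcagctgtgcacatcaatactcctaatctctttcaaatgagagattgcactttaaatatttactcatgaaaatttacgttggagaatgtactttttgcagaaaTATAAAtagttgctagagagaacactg
Cpb1, chr2:104714663-104714912, minus strand: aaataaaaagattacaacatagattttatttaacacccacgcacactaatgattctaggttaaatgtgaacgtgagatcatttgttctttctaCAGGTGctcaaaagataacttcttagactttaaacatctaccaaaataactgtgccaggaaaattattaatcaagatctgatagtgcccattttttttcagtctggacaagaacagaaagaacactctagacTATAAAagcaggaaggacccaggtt
Pnlip held TATAAA from position -31 to -26, counted from the start site, and TTTCCC from -11 to -6. Pnliprp1 held none of the 3 motifs in this window. Amy2a3 held TATAAA from -27 to -22, and Cpb1 held TATAAA from -25 to -20 and, on the opposite strand, CACCTG from -157 to -152. Among all 33469 RefSeq windows of this length, 15.9% held the E-box, 22% the other PTF1 motif and 12.9% the TATA box motif, and each motif was found in 4 of the 8 enzyme windows. A match is a description of the letters only.

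Amylase, the starch-digesting enzyme, was measured through Amy2a3. It lay at 73.1, 125 and 85.4 CPM at P10 and at 136, 118 and 484 CPM in adults. Adult replicate 2 lay below P10 replicate 3, so the groups overlapped, and adult replicate 3 stood far above the rest. Amy2a3 rose 2.63-fold (log2 fold change 1.40 ± 0.39 SE; edgeR FDR = 0.0139). Without adult replicate 3 the log2 fold change was 0.43 ± 0.20 and did not pass (FDR = 0.152), nor did the gene pass without P10 replicate 4 (FDR = 0.0625), with library totals alone (FDR = 0.0705) or with DESeq2 (adjusted p = 0.120). Rat amylase genes are near-identical copies and only unique alignments were counted, so the level of this row is uncertain. Alignments that were not unique made up 23.4% to 27.7% of all counts at P10 and 15.1% to 17.8% in adults, and their part in the amylase and trypsinogen values was not tested. The Amy1a row had between 0 and 9 counts per library.

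The carboxypeptidase genes, whose enzymes trim residues from the end of peptides, were lower in adults. Cpa1, carboxypeptidase A1, lay at 485, 614 and 487 CPM at P10 and at 87.5, 116 and 407 CPM in adults. The groups did not overlap, although adult replicate 3 came close to the P10 libraries. Cpa1 fell 2.56-fold (log2 fold change -1.36 ± 0.38 SE; edgeR FDR = 0.0143), and 5.17-fold (FDR = 3.19e-07) without adult replicate 3. The Cpa1 call was lost without adult replicate 1 or 2 (FDR = 0.0601 and 0.0839) and with DESeq2 (adjusted p = 0.136). Cpb1, carboxypeptidase B1, which takes basic residues, lay at 180, 199 and 157 CPM at P10 and at 18.0, 32.6 and 105 CPM in adults, without overlap. It fell 3.31-fold (edgeR FDR = 0.00366), or 7.06-fold without adult replicate 3, and its DESeq2 adjusted p was 0.0536.

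Of the serine protease genes Ctrb1 fell and Prss1 did not pass. Ctrb1, a chymotrypsinogen, lay at 1437, 2060 and 1465 CPM at P10 and at 441, 563 and 1514 CPM in adults. Adult replicates 1 and 2 were below all P10 libraries and adult replicate 3 among them. Ctrb1 fell 1.97-fold (log2 fold change -0.98 ± 0.32 SE; edgeR FDR = 0.0321), and 3.28-fold (FDR = 7.79e-06) without adult replicate 3. Ctrb1 no longer passed when P10 replicate 3 or 4, or adult replicate 1 or 2, was left out (FDR from 0.0594 to 0.157), nor with DESeq2 (adjusted p = 0.228).

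Prss1, a trypsinogen whose product activates the other proenzymes, lay at 256, 394 and 204 CPM at P10 and at 195, 201 and 941 CPM in adults. Adult replicates 1 and 2 were just below the lowest P10 library, and adult replicate 3 was well above all P10 libraries. Prss1 did not pass, at a log2 fold change of 0.66 ± 0.43 (SE; edgeR FDR = 0.295) that turned to -0.52 ± 0.21 (FDR = 0.101) without adult replicate 3. The trypsinogens are close copies, and Prss2 was listed at 0 counts in all 6 libraries, so the division of reads among them is uncertain.

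Ratios between enzymes within a library do not depend on how much acinar RNA it held. Each gene's count was set against that of Cpa1 in the same library, and 7 of 8 ratios did not overlap between the groups. The same held for 51.7% of all other tested genes, where Cpa1 itself had fallen with age. Each of these 7 had p = 0.1 in an exact permutation test (two-sided), the lowest value possible for 3 against 3, and 0.114 after Benjamini-Hochberg adjustment over the 8 ratios. The p-values therefore do not pass any usual threshold, and the values are given for their size. Without adult replicate 3 the same number, 7 of 8, did not overlap, each with p = 0.2 in the same exact permutation test. Groups separate more easily with fewer libraries, and the share over all tested genes was not computed for that set.

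Pnlip had 0.00196, 0.00170 and 0.00249 counts for each count of Cpa1 at P10, and 0.348, 0.256 and 0.228 in adults. Adult replicate 3, with the most enzyme RNA of the adult libraries, had the lowest of the adult ratios, still far above every P10 library. The mean log2 ratio was -8.84 ± 0.30 (SD, n = 3) at P10 and -1.87 ± 0.32 (SD, n = 3) in adults, a difference of 6.97.

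Amy2a3 counts per Cpa1 count were 0.151, 0.203 and 0.175 at P10 and 1.55, 1.02 and 1.19 in adults. Unlike its level, this ratio did not overlap, and its mean log2 value differed by 2.81, or 7.03-fold. Prss1 gave 0.528, 0.643 and 0.419 at P10 and 2.23, 1.73 and 2.31 in adults, a 3.97-fold higher ratio without overlap. Prss1, which did not pass as a level, thus stood higher relative to Cpa1 in 3 of 3 adult libraries.

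Cel counts per Cpa1 count were 0.280, 0.342 and 0.281 at P10 and 0.692, 0.489 and 0.823 in adults, 2.18-fold higher. Ctrb1 gave 2.96, 3.36 and 3.01 at P10 and 5.04, 4.85 and 3.71 in adults, 1.45-fold higher. Its direction turned when the sum of the other 8 enzymes was the denominator (log2 difference -0.27, adult minus P10).

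Pnliprp1 and Cpb1 were the 2 genes whose ratio to Cpa1 was lower in adults without overlap. Pnliprp1 gave 0.795, 0.836 and 0.503 at P10 and 0.348, 0.230 and 0.347 in adults, 2.29-fold lower. Cpb1 gave 0.370, 0.325 and 0.321 at P10 and 0.206, 0.281 and 0.257 in adults, 1.37-fold lower. Clps was the exception with overlap, at 0.643, 0.599 and 0.334 against 0.605, 0.353 and 0.270 (exact permutation p = 0.5), and its sign turned with Cpb1 as the denominator (log2 difference 0.07).

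**Figure D3:**
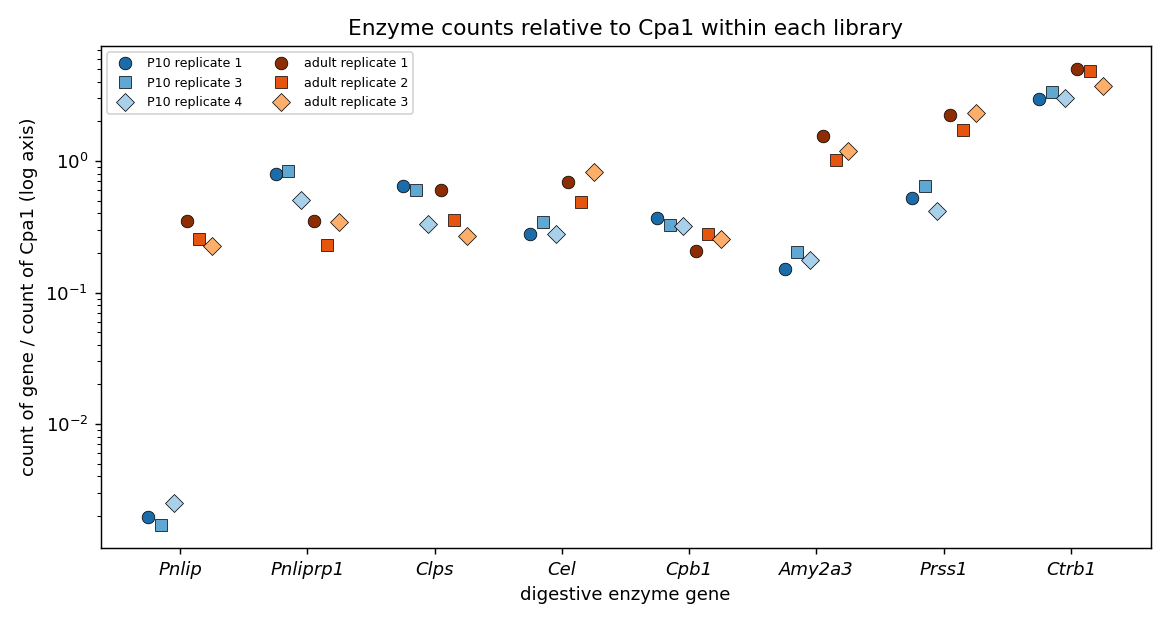
Count of each enzyme gene divided by the count of Cpa1 in the same library (log axis), P10 in blue and adult in brown and orange. The 3 adult libraries do not overlap with the 3 P10 libraries except for Clps, with the widest gap for Pnlip and the narrowest for Cpb1 and Ctrb1.

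Taking every pair among the 9 genes, 30 of 36 ratios did not overlap between the ages, against 41.6% of all pairs of tested genes. The 9 genes share libraries, so the pairs are not independent of each other. All 8 pairs with Pnlip, which passed the filter through its adult counts alone, were without overlap and are among the 30. Their log2 difference ran from 4.15 against Amy2a3 to 8.16 against Pnliprp1. The 6 pairs with overlap all involved Pnliprp1, Clps or Cel. In adults the SD of the log2 level ran from 0.74 for Clps to 1.45 for Cel, whereas the SD of the log2 ratio to Cpa1 ran from 0.23 for Prss1 to 0.59 for Clps.

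As a percentage of the summed counts of the 9 genes, Pnlip went from 0.0312% ± 0.00919 (SD, n = 3) at P10 to 2.55% ± 0.327 (SD, n = 3) in adults. Amy2a3 went from 2.64% ± 0.352 to 11.5% ± 1.49, and Prss1 from 7.86% ± 0.931 to 19.4% ± 3.01. Pnliprp1 went from 10.5% ± 1.91 to 2.86% ± 0.582, Cpa1 from 15.03% ± 1.44 to 9.33% ± 0.873, and Cpb1 from 5.09% ± 0.564 to 2.33% ± 0.549. Ctrb1, at 46.6% ± 2.92 and 42.0% ± 5.42, was the only one of the 9 whose percentages overlapped between the ages. The gap was narrow for Cel, at most 4.68% at P10 and at least 4.79% in adults. It was also narrow for Clps, at least 5.52% at P10 and at most 5.03% in adults. These are parts of 1 sum, so a rise in some lowers the others, and no share over all genes exists for this measure. Because reads grow with transcript length, these percentages compare the ages and not the enzymes.

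Other genes of the acinar cell were also divided. Of a list of 32, all had a row and 23 were tested. Of these, 8 were higher, 4 lower and 11 did not pass, with a median log2 fold change of 0.47. Over all tested genes 12.5% were higher and 13.8% lower, with a median of -0.03. Without adult replicate 3, 6 of the list were higher and 9 lower, with a median of -0.81. Over all tested genes 10.0% were then higher and 11.4% lower, with a median of -0.03. Among the protease genes, Cela1, an elastase, rose 3.91-fold (edgeR FDR = 0.00216), or 2.25-fold (FDR = 0.0383) without adult replicate 3. Ctrc, chymotrypsin C, which helps to control trypsinogen, rose 2.95-fold (FDR = 0.00535), or 1.59-fold (FDR = 0.0417) without that library. With DESeq2 Ctrc did not pass (adjusted p = 0.0533). Cela2a, Cela3b, Ctrl and Prss3 did not pass in edgeR, with log2 fold changes of 0.58, -0.76, 0.47 and -0.97. Without adult replicate 3, Cela3b (-1.74, FDR = 7.04e-06), Ctrl (-0.81, FDR = 0.0479) and Prss3 (-2.55, FDR = 0.000136) were lower, and Cela2a (-0.38, FDR = 0.344) did not pass.

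Among the other lipid enzymes, Pnliprp2, a lipase active on milk fat and galactolipids, lay at 20.5, 38.0 and 26.7 CPM at P10 and at 9.34, 6.96 and 37.5 CPM in adults. It did not pass (edgeR FDR = 0.366), and fell without adult replicate 3 (log2 fold change -1.79, FDR = 0.00222). Pla2g1b, the pancreatic phospholipase A2, did not pass, at a log2 fold change of 1.16 (FDR = 0.0552). That value was 0.07 (FDR = 0.862) without adult replicate 3, and Pla2g1b passed without adult replicate 1 or 2 (FDR = 0.0274 and 0.0216). Its counts per Cpa1 count were 0.397, 0.344 and 0.208 at P10 and 2.13, 1.44 and 1.90 in adults. Relative to Cpa1, 14 of the 23 genes were higher and 1 lower without overlap, and 8 overlapped, among them Pnliprp2 and Prss3. Over all other tested genes 51.7% did not overlap by this measure, a share that counts higher and lower ratios alike. No share by direction was computed, so the 14 higher ratios have no background of their own. Cpa1 itself fell 2.56-fold, so a gene with a steady level would also have a higher ratio in adults. The 14 include Bhlha15, Cckar and Rab3d, whose ratios differed among the adult libraries, as for Rab3d at 2.34, 1.83 and 0.480.

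Of the genes of other acinar proteins, Gp2, Zg16 and Klk1 rose, Rnase1 and Erp27 fell, and Sycn and Pdia2 did not pass. For comparison, 12.5% of all tested genes were higher and 13.8% lower. Gp2, the main membrane protein of the granule, rose 3.19-fold (edgeR FDR = 0.00527), and Zg16, a granule lectin, 3.50-fold (FDR = 0.0120). Both calls were lost without adult replicate 3 (FDR = 0.0655 and 0.186), and that of Zg16 also with DESeq2 (adjusted p = 0.0996). Klk1, tissue kallikrein, rose 3.20-fold (FDR = 0.000401). Sycn, syncollin, did not pass, at a log2 fold change of 0.09 (FDR = 0.864) whose sign turned with library totals alone (-0.41), without P10 replicate 1 and without adult replicate 3. Rnase1, pancreatic ribonuclease, fell 2.77-fold (FDR = 0.00169), and Erp27, an endoplasmic reticulum protein, 4.26-fold (FDR = 0.0259), or 4.27-fold and 13.4-fold without adult replicate 3. Erp27 no longer passed when P10 replicate 3 or 4, or adult replicate 2, was left out. Pdia2, a pancreatic disulphide isomerase, did not pass (log2 fold change -0.25), and was lower without adult replicate 3 (-1.51, FDR = 0.0160).

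Of the acinar transcription factors, Rbpjl, the acinar subunit of PTF1, fell 3.38-fold (edgeR FDR = 0.0108), at 9.09, 16.3 and 11.2 CPM against 2.77, 2.20 and 5.32 CPM. The call was lost without P10 replicate 3 (FDR = 0.0773). Its ratio to Cpa1 overlapped between the ages. Ptf1a and Gata4, both low, did not pass (log2 fold changes -0.39 and -0.81). Bhlha15, also named Mist1, rose 1.56-fold (FDR = 0.00539), Cckar, a receptor for cholecystokinin, 1.99-fold (FDR = 0.00187), and Rab3d, a small GTPase of secretory granules, 1.64-fold (FDR = 0.000463). These 3 did not follow the enzyme amount among adults: adult replicate 3 had 0.887, 1.07 and 0.936 times the mean level of the other adult libraries, against 2.34 to 5.72 times for the 9 enzymes. None of the 3 passed with library totals alone.

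The 9 genes not tested were low, with at most 34 counts in a library. They were Prss2, Try10, Amy1a, Spink1, Spink3, Cuzd1, Serpini2, Dnase1 and Nr5a2. Spink1 and Spink3, trypsin inhibitors of the acinar cell, had 22 and 54 counts over the P10 libraries and 0 and 14 over the adult libraries. By library, Spink1 had 0, 19 and 3 counts at P10. Spink3 had 7, 34 and 13 at P10 and 4, 1 and 9 in adults. The groups overlapped for both. Try4, a tested trypsinogen row, had 7, 8 and 11 counts at P10 and 6, 8 and 72 in adults, so adult replicate 3 held most of its adult counts. It did not pass (edgeR FDR = 0.0638), but passed with DESeq2 (adjusted p = 0.0468) and without a filter (edgeR FDR = 0.0422).

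**Figure D4:**
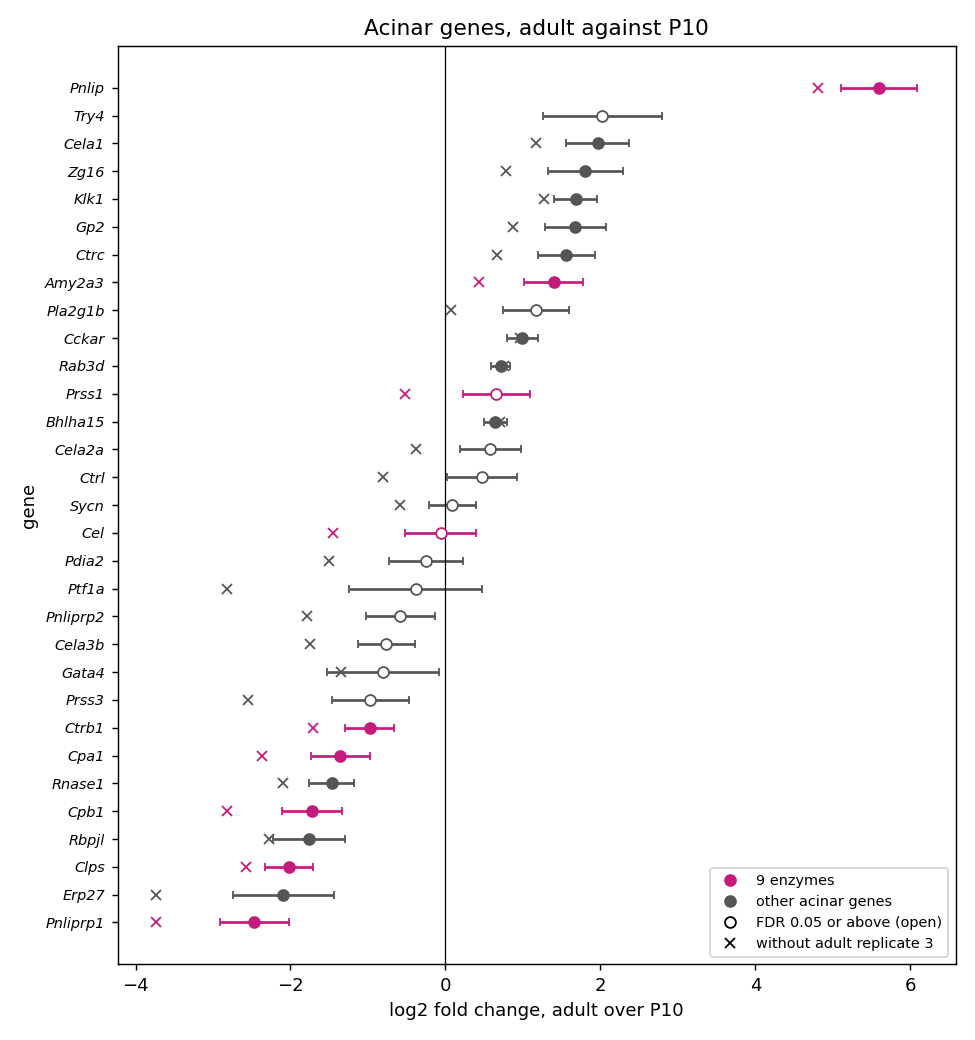
Log2 fold change, adult over P10, of the 9 enzymes and 22 other tested acinar genes, with SE bars, filled where edgeR's FDR was under 0.05, and crosses for the value without adult replicate 3. Most crosses lie to the left of the points, and Pnlip stands furthest to the right (5.60) and Pnliprp1 furthest to the left (-2.47).

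Markers of other cell types were summed in the same libraries. For the counts of called members, 12.5% of all tested genes were higher and 13.8% lower. The duct markers Krt7 and Sox9 had no row. Duct markers summed to between 2807 and 3130 CPM at P10 and between 977 and 1315 CPM in adults, with 6 of 7 tested members lower. Fibroblast and stellate markers summed to between 3574 and 4321 CPM at P10 and between 726 and 1003 CPM in adults, with 7 of 9 tested members lower, while the Col1a2 row held 0 counts in all 6 libraries. For both lists adult replicate 3 stayed with the other adult libraries. Genes of all endocrine cells summed to between 7873 and 8376 CPM at P10 and between 12197 and 12816 CPM in adults, with 7 of 10 higher. Endothelial and leukocyte markers had 1 of 8 and 1 of 6 members lower, and 4 of 6 islet hormone genes were higher and 1 lower. The part of these shifts in the enzyme results was not tested.

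Among 8751 genes averaging at least 5 CPM and outside the acinar lists, the 5 whose log2 CPM followed the mean of the 9 enzymes most closely over the 6 libraries were Ldb1, Azi2, Rsrc2, Ube2q1 and Mecr, with Pearson r from 0.968 to 0.985. None of them was called between the ages (edgeR FDR from 0.485 to 0.957). For Pnlip alone the closest were Fam65a, Rassf6 and Gmds (r = 0.997 for each). They were higher in adults, a direction fixed by choosing genes that follow Pnlip. With 6 libraries and this many candidates, such values describe these libraries only.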

How the data were processed

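Per the labels' protocols, oligo(dT)-selected RNA went into unstranded single-end libraries. The submitters' processing notes name Bowtie2, TopHat2 2.0.10 and HTSeq on rn5, and DESeq and edgeR without a role. Each library's deposited file lists raw counts by gene symbol. Its counter rows set aside alignments that were not unique, so only unique ones were counted, per the deposited files. The 5 counter rows stayed out of library sizes and tests, and alignments that were not unique made up 23.4% to 27.7% of the counts in all rows at P10 and 15.1% to 17.8% in adults. A combined deposited table was not used.

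Genes were kept by filterByExpr (minimum count 10, total 15), which left 10124 of 17055. edgeR 4.0.16 in R 4.3.3 fitted a quasi-likelihood model with age group as the only term to all 6 libraries with TMM factors, and p-values were adjusted by Benjamini-Hochberg over all tested genes. SE was taken as |log2 fold change| over √F. Ratios within a library used a pseudocount of 0.5 on the log2 scale. Floors of 3 counts cover counting error only. Alternatives were relative log expression (RLE) factors, library totals alone, TMM without hormone and acinar genes, no filter, 5 CPM in 3 libraries, DESeq2 1.42.0, the replicate number as a block, leaving out each library, other pseudocounts and denominators, and, added after seeing the data, scaling to the summed other acinar genes. The script was tested on simulated data.

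The 9 genes, the lists of acinar genes and cell type markers and the tests were chosen with earlier results of these data known. Named genes were the 9 enzymes and the 32 other acinar genes whatever their result (1 of the latter is counted but not reported here), and the genes most alike by correlation of log2 CPM (prior count 2).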

Additional observations from a re-analysis of the deposited data

How the results depend on the processing

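Pnlip, Pnliprp1 and Clps kept their direction and their call in every alternative, with edgeR or DESeq2 adjusted p of at most 3.45e-05, 0.0105 and 0.0356. The number of enzymes called higher was 1 in place of 2 with library totals alone, with scaling to the summed other acinar genes and with DESeq2, and ran from 1 to 2 when single libraries were left out. The number called lower, 5, became 3 with scaling to the other acinar genes and 2 with DESeq2, and ran from 3 to 6 without single libraries. Of the other acinar genes, 8 higher became 5 with library totals alone, and 4 lower became 2 with the replicate block. Leaving out single libraries gave from 2 to 9 lower and from 6 to 9 higher. The log2 ratio of the summed enzyme level, adult over P10, was -0.75 and ran from -1.67 without adult replicate 3 to -0.42 without adult replicate 1. The causes of these shifts were not tested.

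Leaving out single libraries turned the sign of fold changes that had not passed, with ranges of -1.45 to 0.32 for Cel, -0.52 to 1.01 for Prss1, -0.38 to 0.95 for Cela2a, -0.81 to 0.85 for Ctrl, -0.59 to 0.40 for Sycn, -1.51 to 0.14 for Pdia2 and -2.82 to 0.020 for Ptf1a. Library totals alone turned Ctrl (-0.017) and Sycn (-0.41). Of the ratios to Cpa1, Clps turned with Cpb1 as denominator (0.072) and Ctrb1 with the sum of the other 8 (-0.27). The number of ratios without overlap was 6 of 8 with Cpb1 as denominator and 7 of 8 in the other runs with Cpa1. With the sum of the other 8 it was 8, where all 9 genes give a ratio. Without a filter Prss1 passed (FDR = 0.0472). Library totals alone moved the median over all tested genes from -0.03 to -0.52.

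Both groups have a replicate 1 and a replicate 3, and nothing in the labels pairs them. Deviations from the group means correlated at -0.02 and -0.0049 for these numbers. The fit with the replicate block called 2 enzymes higher and 5 lower, as did the fit without it, while Erp27, Rbpjl and Bhlha15 no longer passed (FDR = 0.117, 0.109 and 0.0633). Scaled to the other acinar genes, Amy2a3, Cpa1 and Ctrb1 did not pass (FDR = 0.377, 0.166 and 0.497). Enzyme counts under about 10 in a library, as for Pnlip at P10, limit the precision of its fold.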
